A study of Mus musculus with 16 samples.

Results

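The 26S proteasome and the CCT chaperonin are the large machines that remove and fold proteins in the cytosol. The proteasome consists of a barrel-shaped 20S core, in which rings of beta subunits, some of them proteolytic, lie between rings of alpha subunits, and of a 19S regulatory particle whose ATPases unfold ubiquitin-tagged proteins. CCT, also called TRiC, is a double ring of related subunits that folds actin, tubulin and other proteins inside its cavity. Protein turnover and folding capacity are known to differ between quiescent and activated neural stem cells of the subventricular zone (SVZ), a germinal niche of the adult brain.

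Members were the genes of the deposited table whose symbols begin with Psma to Psmg followed by a number, without the inducible *Psmb8*, *Psmb9* and *Psmb10*, together with *Tcp1* and *Cct2* to *Cct8*. The rule found 52 of the 30386 genes, of which 45 belong to the proteasome and 7 to CCT; *Cct6a* was not analysed here. Of the 52, 50 passed the filter of more than 1 CPM, the reads of a gene scaled to the total of its sample, in at least 4 samples, while *Psma8* and *Psmb11*, known from testis and thymus, were listed at 0 in every sample.

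The study asked how the homeobox gene *Dbx2* alters adult neural stem/progenitor cells (NSPCs). NSPC lines from the SVZ of mice aged 3 months carried either a *GFP* control transgene (8 samples of *GFP*-NSPCs) or a constitutive *Dbx2* transgene (8 samples of *Dbx2*-NSPCs), and both were grown as proliferating non-adherent cultures. The paper describes 2 lines per transgene, each sampled in 4 experiments, but the labels do not tie a sample to a line. The p-values therefore measure the spread between cultures of few lines, and selection of a line and the transgene cannot be told apart. RNA was sequenced from the 3′ ends of transcripts, with 1803928 to 3258885 reads per sample in *GFP*-NSPCs and 2214008 to 3293285 in *Dbx2*-NSPCs. At this depth 3 reads, taken as the floor, equal 0.911 to 1.66 CPM, which covers counting error only. The samples numbered 1 to 4 and those numbered 5 to 8 lay apart within both transgenes, so values are also given within these sets.

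The targeted gene was checked first. *Dbx2* stood at 30.7, 64.4 and 171 CPM (lowest, median, highest) in the *GFP*-NSPC samples, against 114, 147 and 232 CPM in the *Dbx2*-NSPC samples, and the groups overlapped. Its log2 fold change was 1.26 (SE 0.317, n = 8 per group; limma adjusted p = 0.00978; exact 2-sided permutation test, p = 0.00357). Within the samples numbered 1 to 4 it was 0.54 (limma adjusted p = 0.0891), and within those numbered 5 to 8 it was 1.99. The markers of neural stem and progenitor cells were present: *Nes*, *Sox2*, *Vim*, *Fabp7*, *Slc1a3*, *Egfr* and *Mki67* all passed the filter, with *Vim* at 2414 ± 388 CPM in *GFP*-NSPCs (SD, n = 8). Of these 7 genes, 3 were lower in *Dbx2*-NSPCs (*Fabp7*, log2 fold change -0.72; *Slc1a3*, -1.03; *Egfr*, -0.45; limma adjusted p = 0.0149, 0.0259 and 0.00433). Of all genes tested 7.78% were called lower. With the replicate block *Sox2* was also called lower (limma adjusted p = 0.000508). Taken less the 50 nearest genes in each sample, all 3 calls were lost (-0.36, -0.85 and -0.33; limma adjusted p = 0.245, 0.0943 and 0.0625). In bulk RNA, fewer cells of a type and less RNA per cell cannot be told apart. None of the 4 oligodendrocyte, 4 microglial and 2 mural or fibroblast markers passed the filter, and *Mog* and *Aif1* were at 0 in every sample. Of the 3 endothelial markers *Cldn5* was at 0 in every sample and *Kdr* passed the filter, at 2.58 ± 1.99 CPM in the controls against 2.36 ± 2.80 CPM with *Dbx2* (SD, n = 8 each). The ependymal marker *Foxj1* stood at 12.8 ± 3.20 CPM against 19.97 ± 6.65 CPM (SD, n = 8 each; 0.56, limma adjusted p = 0.104; called higher with the replicate block, limma adjusted p = 0.0307, and by edgeR and DESeq2, adjusted p = 0.0468 and 0.0284). Less its neighbours, of which 10 of 50 were called higher, it stood at 0.22 (limma adjusted p = 0.587). Of the 3 neuroblast markers *Stmn2* was at 0, and *Dcx* and *Nrxn3* were called lower with *Dbx2* in the samples numbered 1 to 4 (-2.87 and -1.16) and higher in those numbered 5 to 8 (3.02 and 0.87). The part of these markers in the results on the members was not tested.

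Most proteasome and CCT genes differed little between the transgenes. Tested by limma over all 12533 genes that passed the filter, with Benjamini-Hochberg adjustment and a threshold of 0.05, 3 of 50 members were lower in *Dbx2*-NSPCs (*Cct2*, *Psmd6* and *Psme3*) and 0 were higher. Among all genes tested 15.8% were called, 7.78% lower and 8.03% higher. The members' count lay below the share called in either direction, while their count called lower lay near the share called lower. This depended on the fit. With the replicate block 9 of 50 members were called lower (10.9% of all genes), with the sample set as a covariate 8 (12.2%), and less the 50 nearest genes 7 (7.84%). With edgeR 1 was called lower (7.01%). At an unadjusted p under 0.05 there were 17 of 50 members, against 29.2% of all genes. Of the members tested, 35 of 50 had a negative log2 fold change, against 52.7% of all genes, and the median was -0.07 against -0.02 for all genes. With quantile scaling 30 of 50 were negative, and with TMM or median-of-ratios scaling 33. The log2 fold changes of the members had an SD of 0.18, against 0.575 for all genes. These SDs compare genes of unlike level. All 50 members had a mean of at least 5 CPM, a filter that 9965 genes in all passed.

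In an alternative the samples were taken as pairs by replicate number, though whether they are pairs is not known. A fit with the number as a block called 9 members lower and 0 higher, namely the same 3 and *Cct7*, *Psma5*, *Psmb5*, *Psmc2*, *Psmd9* and *Psmg3*. In that fit 21.7% of all genes were called, 10.9% lower and 10.8% higher. With TMM, median-of-ratios or quantile scaling, and with edgeR on the recovered reads, *Cct2* was the only member called (edgeR called 15.4% of all genes, 7.01% lower and 8.38% higher; the 3 scalings called 15.4% to 15.7%).

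**Figure D1:**
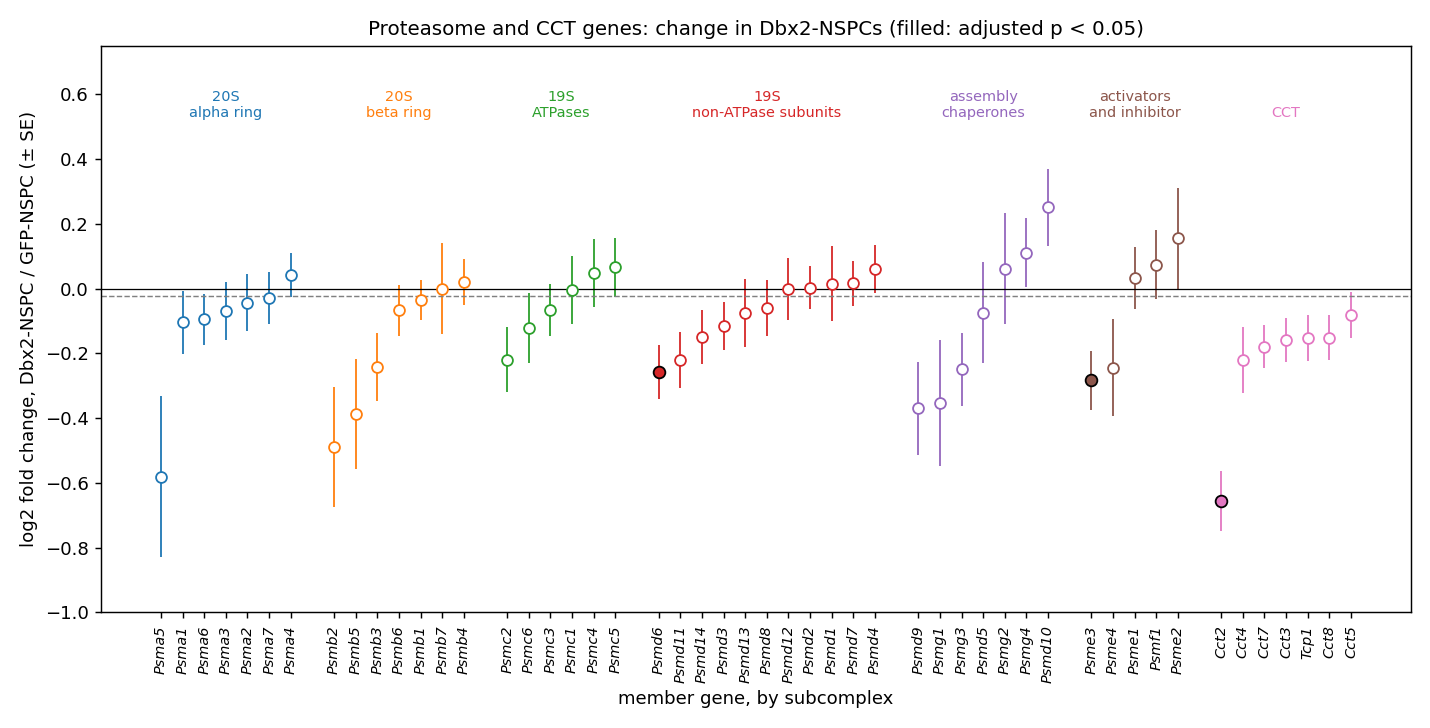
Log2 fold change (*Dbx2*-NSPC over *GFP*-NSPC, ± SE, 8 samples per group) of the 50 members tested, by subcomplex; filled points have a limma adjusted p under 0.05 and the dashed line is the median of all genes. The 3 filled points are *Psmd6*, *Psme3* and *Cct2*, and all 7 CCT subunits lie below 0.

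The CCT subunits were the subcomplex in which every member had a lower mean in *Dbx2*-NSPCs. Of the 7, 1 passed the test, against 15.8% of all genes. It was *Cct2*, which encodes the beta subunit. *Cct2* (ENSMUSG00000034024) lies on the minus strand of chromosome 10, from 117051001 to 117063814 (GRCm38). Its level was 266, 350 and 394 CPM (lowest, median, highest) in the *GFP*-NSPC cultures against 163, 222 and 255 CPM in the *Dbx2*-NSPC cultures. The groups did not overlap, which held for no other member and for 3.41% of all genes tested, 1.81% with *Dbx2*-NSPCs lower and 1.6% with them higher. The means were 348 ± 38.8 and 221 ± 27.8 CPM (SD, n = 8 each). The log2 fold change was -0.66 (SE 0.0925, limma adjusted p = 6.25e-05; exact 2-sided permutation test, p = 0.000155, the smallest that the 12870 splits can give). It was lower with *Dbx2* at each of the 8 replicate numbers, with a log2 fold change of -0.70 in the samples numbered 1 to 4 and -0.61 in those numbered 5 to 8, and it was called in all 16 fits that left out 1 sample.

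The other 6 subunits had smaller differences. *Tcp1*, the alpha subunit after which the complex was first named, stood at -0.15 on the log2 scale (limma adjusted p = 0.165). *Cct4* was at -0.22 (0.155), *Cct7* at -0.18 (0.0719), *Cct3* at -0.16 (0.12), *Cct8* at -0.15 (0.151) and *Cct5* at -0.08 (0.478), with limma adjusted p-values in parentheses. None of these passed the threshold over all samples. *Cct7* did with the replicate block (limma adjusted p = 0.045), with the sample set as a covariate (0.0417; 24.2% of all genes called, 12.2% lower and 12% higher) and less its neighbours (0.0429), and *Cct8* did with the sample set as a covariate (limma adjusted p = 0.0438). *Cct3* and *Cct8* were also called in the samples numbered 5 to 8 alone (limma adjusted p = 0.0136 and 0.0474). Levels of *Cct7* ran from 524 to 669 CPM in the *GFP*-NSPC cultures against 480 to 573 CPM in the *Dbx2*-NSPC cultures, and those of *Cct8* from 340 to 443 and from 318 to 372 CPM, so both pairs of ranges overlapped. The 7 log2 fold changes were negative under each alternative scaling, filter and left-out sample, but *Cct5* turned to 0.15 when each gene was taken less its 50 nearest neighbours. Annotated genes on the opposite strand overlap *Cct7* (*Pradc1*), *Cct8* (*Usp16*) and *Tcp1* (*Mrpl18*), and since the strand used for counting is not given in the sources used here, reads of these pairs cannot be told apart.

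**Figure D2:**
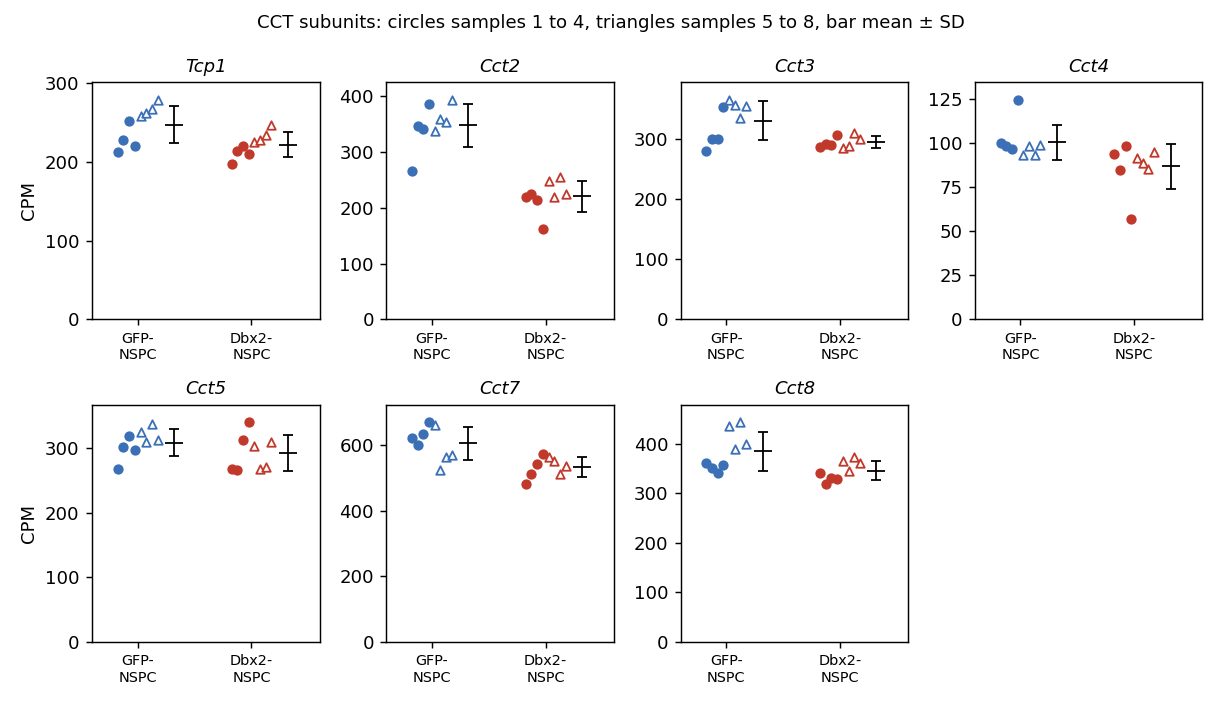
CPM (vertical axes, from 0) of the 7 CCT subunits in each of the 16 samples, with mean ± SD beside each group; circles are samples 1 to 4 and triangles samples 5 to 8. *Cct2* is the only panel in which the groups are separate, with 255 CPM as the highest *Dbx2*-NSPC sample and 266 CPM as the lowest *GFP*-NSPC sample.

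Several promoters of the CCT genes hold the same short sequence. RefSeq promoter windows (GRCm38.p6, 250 bases before to 50 after the start) were matched for 43 of the 52 members. Searched were 6 motifs, and none of the counts carries a test. The ETS core TTCCGG, searched on both strands as TTCCGG or CCGGAA, occurs in the windows of 5 of 6 CCT genes, 10 of 14 19S genes and 4 of 12 20S genes, against 31.78% of the 9631 tested genes with a window and 16.66% of 27025 genes in all. The E-box CACGTG occurs in 0 of the 6 CCT genes and 3 of 37 proteasome genes, against 11.89% of tested genes. CCAAT occurs in 3 of the 6 CCT and 13 of 37 proteasome genes (43.48% of tested genes), the antioxidant response core TGACNNNGC in 2 and 6 (16.93%), the heat shock core TTCNNGAA in 1 and 2 (7.76%) and GCATGC, the centre of the nuclear respiratory factor site, in 2 and 5 (11.74%). A match describes letters in a window and says nothing of whether a factor binds there. The CCT stretches are printed because all of these genes had a negative log2 fold change, and those of *Psmd6*, a gene of the 19S lid, and *Psme3*, an activator gene, because they were called lower. Each runs over 150 bases, from 120 before the start, 5′ to 3′ on the gene's strand, with matches in capitals. *Cct2* and *Cct5* have a pair of windows each, of which the one with the match is shown. That of *Cct5* belongs to a start 265 bases inside the annotated gene, and its more upstream window holds no match. The printed *Tcp1* stretch also lies wholly inside its annotated gene, which begins at 12915701. With the most upstream window of each gene alone, an alternative chosen after the data were seen, the counts were 4 of 6 CCT, 10 of 14 19S and 3 of 12 20S genes, against 28.94% of tested genes. *Tcp1* with its inner start is still counted there.
Cct2, chr10:117063823-117063972, minus strand: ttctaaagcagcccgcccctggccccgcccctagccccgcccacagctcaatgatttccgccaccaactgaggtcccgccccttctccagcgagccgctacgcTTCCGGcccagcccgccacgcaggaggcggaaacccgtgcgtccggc
Cct3, chr3:88297015-88297164, plus strand: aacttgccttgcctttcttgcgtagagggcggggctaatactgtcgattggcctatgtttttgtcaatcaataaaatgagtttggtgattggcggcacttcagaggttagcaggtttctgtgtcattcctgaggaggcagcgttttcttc
Cct5, chr15:31601510-31601659, minus strand: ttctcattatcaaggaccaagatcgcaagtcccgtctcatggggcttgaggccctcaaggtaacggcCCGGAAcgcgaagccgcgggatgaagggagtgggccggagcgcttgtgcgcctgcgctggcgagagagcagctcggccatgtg
Cct7, chr6:85451385-85451534, plus strand: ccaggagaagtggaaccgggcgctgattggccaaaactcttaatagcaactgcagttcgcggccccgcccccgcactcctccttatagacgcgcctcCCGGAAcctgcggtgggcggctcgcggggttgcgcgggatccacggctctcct
Cct8, chr16:87495840-87495989, minus strand: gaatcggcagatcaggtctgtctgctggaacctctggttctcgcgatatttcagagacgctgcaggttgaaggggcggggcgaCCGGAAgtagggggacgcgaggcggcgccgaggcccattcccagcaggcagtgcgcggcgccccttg
Tcp1, chr17:12916209-12916358, plus strand: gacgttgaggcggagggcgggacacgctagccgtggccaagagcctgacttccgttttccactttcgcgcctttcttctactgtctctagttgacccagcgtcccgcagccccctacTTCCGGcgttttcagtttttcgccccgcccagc
Psmd6, chr14:14120916-14121065, minus strand: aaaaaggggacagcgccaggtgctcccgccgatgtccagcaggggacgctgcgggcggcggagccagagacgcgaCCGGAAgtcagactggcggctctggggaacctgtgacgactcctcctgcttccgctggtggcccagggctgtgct
Psme3, chr11:101316093-101316242, plus strand: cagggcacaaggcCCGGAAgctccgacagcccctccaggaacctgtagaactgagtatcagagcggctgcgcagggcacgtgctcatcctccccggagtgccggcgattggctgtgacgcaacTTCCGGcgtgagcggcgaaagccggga

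The match begins 17 bases before the start in *Cct2*, 23 in *Cct7* and 37 in *Cct8*. It begins 53 bases before the inner start in *Cct5* and 3 before the inner start in *Tcp1*, and *Cct3* holds none.

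Within the complex the balance between *Cct2* and its partners also differed. The log2 level of *Cct2* less the mean of the other 6 subunits was 0.262 ± 0.135 in the controls against -0.238 ± 0.177 with *Dbx2* (SD, n = 8 each), a difference of -0.50 with no overlap. *Cct2* was taken for this ratio because it was the CCT gene called, so the ratio restates that call and is no separate support for it.

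The genes around *Cct2* were lower as well. Of the 50 tested genes nearest to it, on chromosome 10 from 108162193 to 122047315, 44 had a negative log2 fold change and 31 were called lower, against 7.78% of all genes tested. Their median log2 fold change was -0.56, with -0.58 in the samples numbered 1 to 4 and -0.53 in those numbered 5 to 8. The closest of them were *Frs2* (-0.57), *Rab3ip* (-0.75), *Yeats4* (-0.53) and *Cpsf6* (-0.55), all called lower. Only 2 of the 50 were called higher, *Msrb3* (0.55) and *Wif1* (3.09), and *Mdm2*, the ubiquitin ligase of p53, stood at 0.32 and was not called. Taken less the mean of these neighbours in each sample, *Cct2* had a log2 fold change of -0.19 and its call was lost (limma adjusted p = 0.107). On that scale 7 of 50 members were called lower, of which *Psme3* was the only one of the 3 called before, and 0 higher, against 7.84% of all genes lower and 7.04% higher (14.9% in all). The other 6 were *Psmd9* (-0.51), *Psmg3* (-0.44), *Psmb2* (-0.58), *Psmd13* (-0.33), *Psmd3* (-0.27) and *Cct7* (-0.22). Around the other 49 members the median of the neighbours lay between -0.23 (*Psmd10*) and 0.14 (*Psmd13*), and at most 7 of 50 were called lower. A change of *Cct2* alone and one shared by its region cannot be told apart on these values, and the karyotype and DNA copy number of the cultures were not analysed here.

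**Figure D3:**
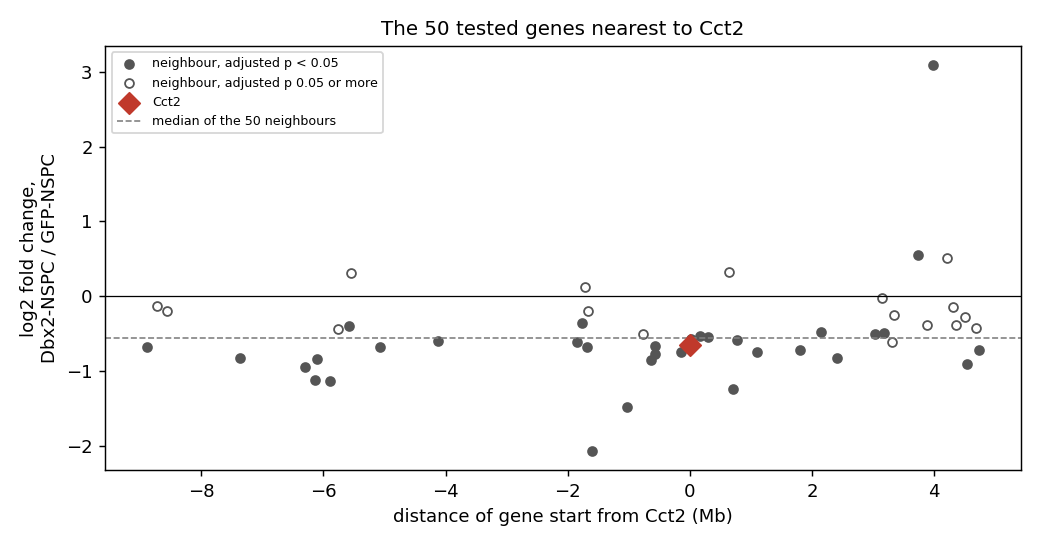
Log2 fold change (vertical axis) of the 50 tested genes nearest to *Cct2* against the distance of their starts from that of *Cct2* in Mb (horizontal axis); filled points have a limma adjusted p under 0.05. *Cct2* at -0.66 lies near the dashed median of its neighbours, -0.56, and 44 of the 50 lie below 0.

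A score per sample, the mean log2 level of the members less that of all genes tested, summarised these differences. For CCT it averaged 3.88 ± 0.086 in the controls against 3.64 ± 0.061 with *Dbx2* (SD, n = 8 each), and the groups did not overlap. Without *Cct2* the difference shrank from -0.247 to -0.175 and the groups overlapped, and with each gene less its neighbours it was -0.076. With a median in place of the mean the CCT difference was -0.197 and the groups overlapped. That median difference was -0.106 in the samples numbered 1 to 4 and -0.288 in those numbered 5 to 8. The 20S score differed by -0.166 and the 19S score by -0.081, both with overlap. The 20S difference was -0.037 with a median in place of the mean, and -0.23 in the samples numbered 1 to 4 against -0.10 in those numbered 5 to 8. Over all 50 members it averaged 2.78 ± 0.068 in the controls against 2.65 ± 0.081 with *Dbx2*, lower with *Dbx2* at each of the 8 replicate numbers but overlapping between the groups. These scores carry no test.

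In the 19S particle, which receives and unfolds substrates, 1 of 17 subunits was called, against 15.8% of all genes (7.78% lower). *Psmd6* (ENSMUSG00000021737), a non-ATPase subunit of the lid, lies on chromosome 14 from 14112174 to 14120984. It stood at 139, 169 and 186 CPM (lowest, median, highest) in the *GFP*-NSPC cultures against 121, 134 and 170 CPM in the *Dbx2*-NSPC cultures, with overlap. The log2 fold change was -0.26 (SE 0.083, limma adjusted p = 0.0408), and -0.19 and -0.33 in the samples numbered 1 to 4 and 5 to 8. DESeq2 kept the call (DESeq2 adjusted p = 0.0409). It was lost with edgeR (edgeR adjusted p = 0.072), less its neighbours (-0.18, limma adjusted p = 0.327) and in 11 of the 16 fits that left out 1 sample, and it was kept without *GFP*-NSPC replicate 1 or 4 or *Dbx2*-NSPC replicate 4, 6 or 7. The other lid and base subunits were closer to 0: *Psmd12* was at -0.00075 (limma adjusted p = 0.997), *Psmd4*, which encodes a ubiquitin receptor, at 0.06 (0.636), and *Psmd11* at -0.22 (0.095). *Psmd11*, a lid subunit linked to high proteasome activity in pluripotent cells, was called in the samples numbered 1 to 4 alone (-0.39, limma adjusted p = 0.0266) and stood at -0.05 in those numbered 5 to 8. None of the 6 ATPases was called, and *Psmc1*, the ATPase with the highest CPM, was at 684 ± 101 and 683 ± 102 CPM (SD, n = 8 each). Among the ATPases *Psmc2* had the smallest p (-0.22, limma adjusted p = 0.153; 0.0492 with the replicate block), and *Psmc6* stood at -0.12.

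None of the 14 core subunits tested was called, against 15.8% of all genes. The largest differences were in genes of low CPM. *Psma5*, an alpha subunit, stood at 33.3, 38.1 and 49.8 CPM in the *GFP*-NSPC cultures against 7.18, 31.8 and 36.03 CPM in the *Dbx2*-NSPC cultures. The lowest value belonged to *Dbx2*-NSPC replicate 4, and the groups overlapped. Its log2 fold change was -0.58 (SE 0.248, limma adjusted p = 0.125; 0.044 with the replicate block). Without *Dbx2*-NSPC replicate 4 it was -0.325 (limma adjusted p = 0.0848). *Psmb5*, which encodes the subunit with chymotrypsin-like activity, was at -0.39 (limma adjusted p = 0.135; 0.0389 with the block). *Psmb2*, a structural beta subunit, was at -0.49 (limma adjusted p = 0.0814; 0.0634 with the block), and it was called lower less its neighbours (-0.58, limma adjusted p = 0.0295) and without *Dbx2*-NSPC replicate 1 or 7. The remaining proteolytic subunits *Psmb6* and *Psmb7* stood at -0.07 and 0.00, and *Psmb1* at -0.04. *Psma7* and *Psma6* differed by -0.03 and -0.09. *Nek6* overlaps *Psmb7* on the opposite strand.

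Among the activators and the inhibitor, 1 of 5 was called, against 15.8% of all genes. *Psme3* (ENSMUSG00000078652), which encodes PA28 gamma, a nuclear activator that opens the core without ubiquitin, lies on chromosome 11 from 101316213 to 101323537. It stood at 56.5, 71.0 and 78.2 CPM in the *GFP*-NSPC cultures against 48.8, 55.6 and 67.7 CPM in the *Dbx2*-NSPC cultures. The ranges overlapped, but the value was lower with *Dbx2* at each of the 8 replicate numbers. The log2 fold change was -0.28 (SE 0.0899, limma adjusted p = 0.0375; edgeR adjusted p = 0.0595). Its call was lost in 10 of the 16 fits that left out 1 sample, and it was kept without *GFP*-NSPC replicate 5, 6 or 7 or *Dbx2*-NSPC replicate 2, 3 or 8. *Psme4*, encoding the activator PA200, was at -0.24 (limma adjusted p = 0.296), and *Psme1*, a subunit of the interferon-inducible PA28, at 0.03.

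The assembly chaperones, which guide subunits into the rings and leave before the particle matures, held 0 called genes of 7, against 15.8% of all genes. *Psmd9* was at -0.37 (limma adjusted p = 0.0869; 0.0159 with the replicate block) and lower in all 8 numbers. *Psmg3* was at -0.25 (limma adjusted p = 0.147; 0.0415 with the block), *Psmg2* at 0.06 and *Psmd10*, which encodes gankyrin, at 0.25 (0.171). *Psmd10* was called in the samples numbered 1 to 4 alone (0.44, limma adjusted p = 0.0283).

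**Figure D4:**
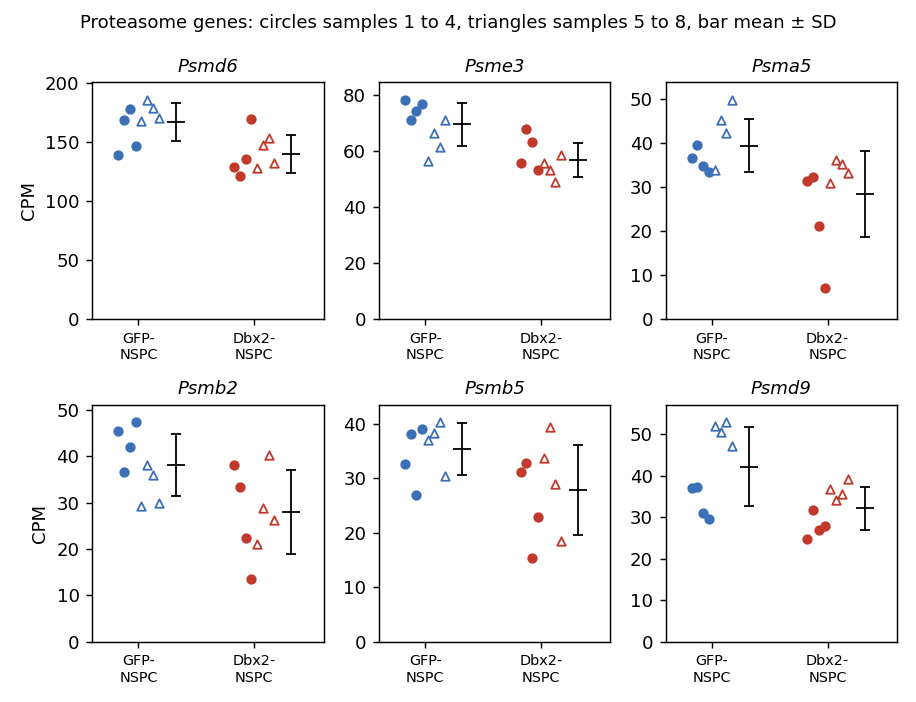
CPM (vertical axes, from 0) of 6 proteasome genes in each of the 16 samples, with mean ± SD beside each group; circles are samples 1 to 4 and triangles samples 5 to 8. The groups overlap in every panel, and the lowest *Psma5* value, 7.18 CPM, is *Dbx2*-NSPC replicate 4.

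The comparison was repeated within each set of samples. Within the samples numbered 1 to 4, 2 members were called lower and 1 higher (15.6% of all genes called, 7.37% lower and 8.19% higher), and within those numbered 5 to 8, 6 were called lower (*Cct2*, *Cct3*, *Cct8*, *Psmd6*, *Psmd9* and *Psme4*) and 0 higher (23.2% of all genes, 11.7% lower and 11.5% higher). The difference of the fold change between the sets was called for 0 of 50 members by limma, against 9.44% of all genes. Between the sets themselves, within transgene, 15 of 50 members were called, a total close to the 29.9% of all genes. By direction they were unlike all genes. Of the members 14 were higher in the samples numbered 5 to 8 and 1 was lower, against 16% of all genes higher and 13.9% lower. *Dbx2*-NSPC replicate 4 was the lowest of its group for 21 of the 50 members, and for 23.3% of all genes. Without it 2 members were called, *Cct2* and *Psmd6*. The share of reads from mitochondrial genes was 3.18% to 6.96% in *GFP*-NSPCs and 4.17% to 8.17% in *Dbx2*-NSPCs. These ranges overlapped, but the share was higher with *Dbx2* at every replicate number. Its part in these results was not tested.

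The genes that work with the proteasome were taken from lists outside the rule. Among 7 further subunits and bound factors, 1 rose and 1 fell, against 8.03% of all genes called higher and 7.78% called lower. *Pomp*, the maturation factor that assembles beta subunits into the core, rose from 447, 484 and 566 CPM (lowest, median, highest) in *GFP*-NSPCs to 593, 658 and 713 CPM in *Dbx2*-NSPCs, with no overlap (log2 fold change 0.41, SE 0.0688, limma adjusted p = 0.000334). *Sem1*, a small subunit of the 19S lid that also serves in other complexes, fell from 95.9, 108 and 121 CPM to 49.5, 79.3 and 93.1 CPM, again with no overlap (-0.56, SE 0.118, limma adjusted p = 0.0027). Less their neighbours the log2 fold change was 0.27 for *Pomp* (limma adjusted p = 0.0326) and -0.30 for *Sem1* (0.0553), whose call was thereby lost. The deubiquitinases *Usp14* and *Uchl5* and the ubiquitin receptor *Adrm1* were not called (-0.05, 0.13 and 0.07).

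Of 4 regulators of proteasome genes, 1 rose, against 8.03% of all genes called higher. *Nfe2l2*, which encodes the stress-responsive factor NRF2, stood at 101, 187 and 230 CPM in the *GFP*-NSPC cultures against 224, 249 and 310 CPM in the *Dbx2*-NSPC cultures (0.64, SE 0.156, limma adjusted p = 0.00814), with a slight overlap. Its log2 fold change was 0.93 in the samples numbered 1 to 4 and 0.36 in those numbered 5 to 8. *Ddi2*, whose product cleaves the *Nfe2l1* protein into its active form, was not called over all samples (-0.43, limma adjusted p = 0.248) but moved in opposite directions within the sets. It was called higher in the samples numbered 1 to 4 (0.51, limma adjusted p = 0.0263) and lower in those numbered 5 to 8 (-1.36, limma adjusted p = 2.91e-06), and the difference was called as well (limma interaction, adjusted p = 1.8e-07). Its 50 nearest tested genes on chromosome 4 moved with it, with a median log2 fold change of 0.74 in the samples numbered 1 to 4 and -0.91 in those numbered 5 to 8. Less these neighbours *Ddi2* was called lower over all samples (-0.43, limma adjusted p = 0.0405). *Nfe2l1* itself, whose product drives proteasome genes when proteasome activity falls short, was at 0.12 (limma adjusted p = 0.505). Of the inducible subunits, which replace the proteolytic ones of the core in the immunoproteasome, 0 of 2 tested were called, with *Psmb10* at 0.36 (limma adjusted p = 0.18) and higher in all 8 numbers.

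Among 15 genes of ubiquitin, its activating enzymes, shuttles and p97, only the shuttle *Ubqln2* was called, against 15.8% of all genes. It stood at 69.1 ± 5.90 CPM in the *GFP*-NSPC cultures against 52.9 ± 10.5 CPM in the *Dbx2*-NSPC cultures (SD, n = 8 each). Its log2 fold change was -0.41 (limma adjusted p = 0.0246). None of 8 prefoldin subunits and CCT cofactors, which hand unfolded actin and tubulin to CCT, was called by limma, and 2 had an unadjusted p under 0.05, against 29.2% of all genes. These were *Pfdn4* at -0.20 and *Pfdn1* at 0.22, in opposite directions. With the replicate block *Pfdn1* was called higher (limma adjusted p = 0.0435). Less their neighbours *Pfdn1* stood at -0.06, and *Pfdn4* at -0.38 and was called lower (limma adjusted p = 0.0065).

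Of 15 genes whose products CCT folds, 2 rose and 1 fell, against 8.03% of all genes called higher and 7.78% called lower. *Tubb6*, a beta tubulin, stood at 50.2, 69.5 and 89.8 CPM in the *GFP*-NSPC cultures against 90.1, 116 and 140 CPM in the *Dbx2*-NSPC cultures, with no overlap (0.75, SE 0.135, limma adjusted p = 0.000673). *Tubb4b* rose from 266 ± 50.6 to 385 ± 63.2 CPM (SD, n = 8 each; 0.54, limma adjusted p = 0.00425). *Tuba1c*, an alpha tubulin, fell by 2.68 on the log2 scale (limma adjusted p = 0.0138), from a median of 7.18 CPM to 0.15 CPM, which is under the floor of 3 reads, so that the size of this change depends on the pseudocount. The *GFP*-NSPC samples numbered 5 to 8 held most of its reads, at 11.9 to 21.6 CPM. *Actb* and the cell cycle regulators *Cdc20* and *Fzr1* were not called over all samples (-0.27, -0.17 and -0.33). With the replicate block 5 of the 15 genes were called, against 21.7% of all genes, namely the same 3 and, both lower, *Fzr1* (limma adjusted p = 0.0135) and *Tubb4a* (limma adjusted p = 0.0139). *Fzr1* was also called by DESeq2 (DESeq2 adjusted p = 0.0404). In the samples numbered 5 to 8 *Actb* (-0.52, limma adjusted p = 0.00134) and *Fzr1* (-0.43, limma adjusted p = 0.0026) were called lower, against -0.02 and -0.24 in those numbered 1 to 4, where neither was called. *Fzr1* also lies on chromosome 10, where 23 of its 50 nearest tested genes were called lower, and less these neighbours it stood at -0.02 (limma adjusted p = 0.93). These tubulin genes share much of their coding sequence, and reads from the 3′ end tell them apart only as far as those ends differ.

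**Figure D5:**
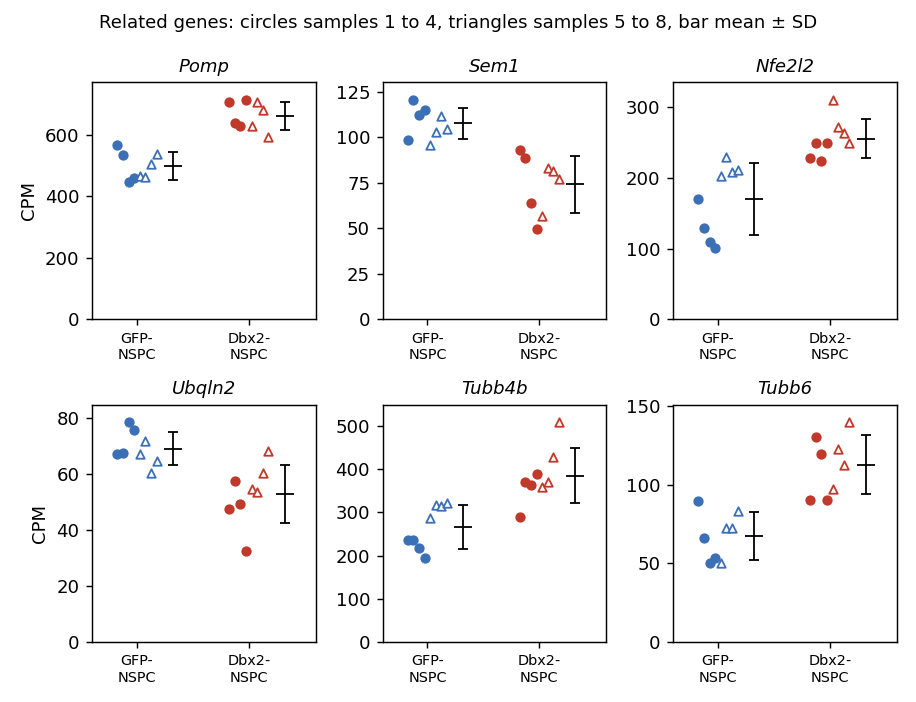
CPM (vertical axes, from 0) of 6 genes that regulate or work with the proteasome or encode tubulins, in each of the 16 samples, with mean ± SD beside each group; circles are samples 1 to 4 and triangles samples 5 to 8. *Pomp* and *Tubb6* rose and *Sem1* fell with no overlap between the groups.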

How the data were processed

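RNA of 16 cultures (8 *GFP*-NSPC, 8 *Dbx2*-NSPC) had been sequenced with the QuantSeq kit from 100 ng of total RNA, in single reads of 101 bp. The submitters' processing notes name FastQC 0.11.8, STAR 2.5.0a, edgeR 3.36 and GRCm38; the counting tool and strand are not given in the sources used here. The authors deposited CPM for 30386 genes, from which whole reads were recovered (100% of values within 0.1 of a whole read); edgeR on these reads called 1928 genes. The members and lists were chosen with earlier results of these data known, as was the setting apart of numbers 1 to 4 from numbers 5 to 8.

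Genes over 1 CPM in at least 4 samples were tested on log2(CPM + 0.5) with limma 3.58.1 (trend) in R 4.3.3, with no covariate since the labels do not name the line. Fold changes are on this scale, which understates those of low genes. Same-numbered samples correlated above 0.1 in their deviations from the group means (r = 0.152 to 0.303). Other numbers of the same set did so too on average (0.161 to 0.242), and 4 of 8 *GFP*-NSPC samples matched best with their own number. These correlations cannot tell pairs by number from the shared set. The numbers, from the labels, were still taken as pairs for a block, in an alternative only. Neighbours were the 50 tested genes nearest by GENCODE M21 position. Further alternatives used edgeR 4.0.16, DESeq2 1.42.0, other pseudocounts, filters and scalings, and left-out samples. The tests were tried on simulated data. Genes were named by rule: *Dbx2*, members called, those of smallest p, largest p and highest CPM in each subcomplex, members not tested, and in each further list those called or else that of smallest p; the remaining CCT genes, *Psmd10*, *Psmb6*, the markers and the other genes named were added after their values were seen. Some genes of the lists are not reported here.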

Additional observations from a re-analysis of the deposited data

Results flagged for a closer look

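A sample stood far from the rest of its group in 4 of 74 groups examined, where chance gives about 1 in 20. *Cct2* was lowest in *GFP*-NSPC replicate 1 at 266.30 CPM and in *Dbx2*-NSPC replicate 4 at 162.54 CPM; it was called lower without either of these samples. *Tuba1c* was highest of its group in *Dbx2*-NSPC replicate 1 at 2.25 CPM, and so was *Dbx2* at 232.13 CPM. The log2 fold change differed between the samples numbered 5 to 8 and those numbered 1 to 4, by limma's interaction term, for *Nfe2l2* (-0.571, adjusted p = 0.0321), *Tuba1c* (-4.078, adjusted p = 0.000511) and *Dbx2* (1.447, adjusted p = 0.000104). In the lists of related genes and markers it also differed for *Usp14* (-0.571, adjusted p = 0.0229), *Ddi2* (-1.872, adjusted p = 1.8e-07), *Nes* (-0.678, adjusted p = 0.00488), *Dcx* (5.892, adjusted p = 3.26e-07) and *Nrxn3* (2.026, adjusted p = 0.000112). No explanation was tested.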

How the results depend on the processing

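Against 3 members called lower, TMM, median-of-ratios and quantile scaling and edgeR gave 1 each, with 0 proteasome and 0 19S members in place of 2 and 1. No filter, and limma without trend, gave 1 proteasome and 0 19S members. Under the replicate block 10.9% of all genes were called lower, against 7.78%. That fit gave 9 members (7 proteasome, 2 20S, 2 19S, 2 CCT) and 5 related genes called lower in place of 3, and it ended no call of a member. The sample set as a covariate, under which 24.2% of all genes were called against 15.8%, gave 8 members (5 proteasome, 2 19S, 3 CCT) and 6 related genes. The samples numbered 1 to 4 alone gave 1 proteasome member lower, 1 member higher and 5 related genes lower. In that fit 7.37% of all genes were called lower and 8.19% higher, and the log2 fold change of *Dbx2*, 0.539, no longer passed. Those numbered 5 to 8 alone gave 6 members (3 CCT) and 6 related genes lower, against 11.7% of all genes called lower. Less the 50 nearest genes, 7 members (6 proteasome, 1 20S, 2 19S) were called lower, against 7.84% of all genes, and the CCT score differed by -0.076. A median in place of the mean gave a 20S score difference of -0.037. For CCT it gave -0.197, with overlap between the groups. With 1 sample left out the members called lower ranged from 1 to 3, proteasome members from 0 to 2, 20S and 19S members from 0 to 1 each, CCT members from 1 to 2 and related genes from 3 to 5; the lowest counts of members came without *GFP*-NSPC replicate 2, *GFP*-NSPC replicate 3 or *Dbx2*-NSPC replicate 5. The cause of these changes was not tested. No member, related gene or marker called over all samples changed direction under the alternatives run. Of genes called only under an alternative, *Ddi2*, *Dcx* and *Nrxn3* were called in opposite directions in the samples numbered 1 to 4 and 5 to 8, and *Psmd13*, *Pfdn1*, *Usp14*, *Nploc4* and *Nes* changed sign between alternatives. At 1803928 to 3293285 reads a sample, 3 reads equal 0.911 to 1.66 CPM, and *Psma8* and *Psmb11* could not be tested.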
